A study of Mus musculus with 4 samples.

Results

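A set of 10 neuronal genes, 9 of the cytoskeleton and growth cone and 1 for an RNA-binding protein, was followed in motor neuron cultures with and without PATZ1: *Tubb3*, *Map2*, *Mapt*, *Map1b*, *Dcx*, *Stmn1*, *Stmn2*, *Gap43*, *Dpysl3* and *Elavl4*. They were listed by name, with earlier results of these data known, and they are 10 of the 23420 gene symbols counted. All 10 passed the filter on low counts, which left 14269 genes for testing. The study asked how the zinc finger protein PATZ1 acts in gene regulation, and RNA-seq of differentiated cells was used to compare genotypes. The WT group (n = 2 libraries) came from E14, a mouse embryonic stem cell (ESC) line, and the *Patz1* KO group (n = 2) came from E14 cells labelled *Patz1* -/-. Both groups were kept with LIF and 2i, aggregated into embryoid bodies and patterned with all-trans retinoic acid and the smoothened agonist SAG, and both are labelled as cervical motor neurons (MNs), although the sample titles name ESCs. KO lines were made from single CRISPR/Cas9 clones, several such lines exist, and the line behind each library is not named in the labels, so the effects of clone and genotype cannot be told apart.

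Axons and dendrites are held up by microtubules, which are hollow polymers of alpha- and beta-tubulin. Microtubule-associated proteins bind along the polymer and stabilise or bundle it, stathmins bind free tubulin dimers and favour disassembly, and the growth cone at the axon tip joins microtubule growth to membrane and actin dynamics. Young postmitotic neurons switch on many of these genes together as they leave the cell cycle.

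Promoter windows from RefSeq (build GRCm38.p6) were found for 5 of the 10 genes, in 9 windows, and the stretches below are shown because PATZ1 is known to bind G-rich DNA and because TATAA is a core promoter element. Each stretch is 30 bases, written 5′ to 3′ on the strand of its gene, with the matched motif in capitals.
*Tubb3* TATAA match, chr8:123411511-123411540 (+), 30 bases before the start: ggggcagcctctTATAAgagggcgcggcgg
*Tubb3* GGGGNGGGG match, chr8:123411303-123411332 (+), 240 bases before the start: ggcagctactGGGGTGGGGcactaaggggc
*Map2* GGGGNGGGG match, chr1:66175236-66175265 (+), 83 bases before the start: gggaacagccGGGGCGGGGcagccgcggag
*Map1b* TATAA match, chr13:99516684-99516713 (-), 99 bases before the start: gcctagtctccaTATAAacggcaccgcctc
*Dcx* TATAA match, chrX:143933300-143933329 (-), 98 bases before the start: tttcctgtgcgtTATAAacgaaacctttct
Among all 32851 promoters of the same table, the 250 bases before the start held TATAA on either strand in 22.8% and GGGGNGGGG on either strand in 20.6%, so both motifs are common, and a match describes letters and not a bound site. Starts are those of RefSeq transcripts, and distances are to the start of window 1 of each gene. The same *Dcx* match lay 193 bases before the start of its window 2. *Map2* window 1 also held a GGGGNGGGG match on the opposite strand, 166 bases before the start, which is not shown above. Against the GENCODE gene models given with each gene below, the *Tubb3* TATAA stretch lay inside the gene, the *Dcx* stretch spanned its 5′ end, and the other 3 stretches lay upstream of the gene. The windows of *Elavl4* held neither motif. *Tubb3* and *Dcx*, whose counts differed between genotypes as described next, and *Map1b* and *Map2*, whose counts did not pass the test, all appear among these matches.

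*Patz1* itself was counted 1363 and 1499 times in the WT libraries and 1154 and 714 times in the *Patz1* KO libraries. Scaled to library size as CPM, the usual per-million unit, its level fell from 92.9 ± 1.96 in WT to 45.1 ± 3.56 in *Patz1* KO (SD, n = 2). The log2 fold change of *Patz1* was -1.04 with SE 0.095 (Benjamini-Hochberg adjusted p = 1.10e-07 by the quasi-likelihood test of edgeR). Counts of the targeted gene were thus reduced but still present in both KO libraries. *Patz1* shares 88 exonic bases with *Gm11944* on the same strand and 605 with *Gm12592* on the opposite strand. Reads of these overlaps could come from either gene, since the strand setting of the counting is not given. The 4 libraries held 14769104 to 23881522 counts in all, and with 2 libraries per group an exact permutation test of a single value cannot give a p below 0.333. Across all tested genes, 47.9% were called at an adjusted p below 0.05, 24.1% as higher and 23.8% as lower in *Patz1* KO, and 74.2% had CPM values that did not overlap between the groups.

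Of the 10 genes, 3 rose in *Patz1* KO (*Dcx*, *Tubb3* and *Stmn2*), 0 fell and 7 did not pass the test. By edgeR at an unadjusted p below 0.05, 0 of them were lower as well, and DESeq2's Wald test called 1 lower, *Map1b*. The share called was 30%, beside 47.9% of all tested genes, but this order depended on the analysis. DESeq2's Wald test called 5 of 10 beside 5118 of 15805 genes. In the next fits, which leave out 1 library, replicate spread came from the 1 pair left. Leaving out WT replicate 2 gave 1 of 10 beside 4521 of 14640 genes, leaving out *Patz1* KO replicate 1 gave 5 of 10 beside 7132 of 14552, and leaving out *Patz1* KO replicate 2 gave 6 of 10 beside 7816 of 14546. Their median log2 fold change was 0.18, beside -0.0014 over all genes, and single values ran from -0.23 for *Map1b* to 1.01 for *Dcx*. Both KO libraries lay above or below both WT libraries for 9 of the 10 genes, the exception being *Mapt*. The same held for 74.2% of all tested genes. Counts for these genes ran from 5042 to 63954, for which counting error alone is at most 1.41% of the value. Since the cultures were sequenced in bulk, fewer cells of a type and less RNA per cell cannot be told apart in any value below.

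**Figure D1:**
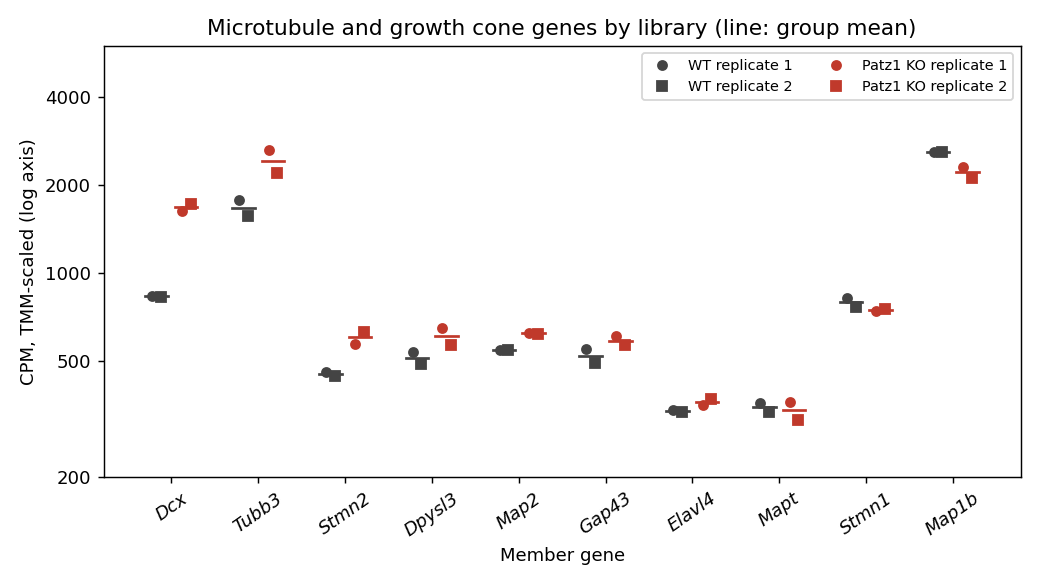
Level of each of the 10 genes in CPM on a log axis, with 1 point per library and a line at each group mean. The *Patz1* KO libraries of *Dcx* sit at 1635 and 1718 CPM, above both WT libraries at 834 and 827 CPM, while the 2 groups of *Mapt* overlap.

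The neuronal beta-tubulin gene *Tubb3*, on chr8:123411424-123422015 of GRCm38, encodes a tubulin subunit that is a standard label of young neurons. The WT libraries held 26466 and 24956 *Tubb3* counts, and the *Patz1* KO libraries held 63954 and 36948. Its level was 1777 and 1570 CPM in WT and 2638 and 2203 CPM in *Patz1* KO, so both KO libraries were higher, although replicate 1 was the higher library in each group and the KO libraries differed from each other by more than the WT libraries. The log2 fold change was 0.53 (SE 0.13, 95% interval 0.25 to 0.81, adjusted p = 0.00295, edgeR's quasi-likelihood test), a rise of 1.45-fold. *Tubb3* remained called in 10 of 11 alternative analyses, but not without WT replicate 2. In that fit the log2 fold change was 0.45 with SE 0.22, and without WT replicate 1 it was 0.63 with SE 0.22. *Tubb3* was the 18th most abundant tested gene by mean CPM.

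Microtubule-associated proteins differed among themselves. *Dcx*, on chrX:143855842-143933311, encodes doublecortin, which binds between protofilaments and is needed for neuronal migration. The WT libraries held 12427 and 13143 *Dcx* counts, against 39620 and 28810 with *Patz1* lost. At 834 and 827 CPM in WT and 1635 and 1718 CPM in *Patz1* KO, the libraries of each group lay close together and the groups were far apart. *Dcx* rose 2.02-fold, a log2 fold change of 1.01 (SE 0.11, 95% interval 0.77 to 1.25, adjusted p = 1.17e-06, edgeR's quasi-likelihood test), and 5.72% of all tested genes had a larger log2 fold change. It remained called in 11 of 11 alternative analyses, including each of those that left out 1 library.

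*Map1b*, on chr13:99421446-99516540, encodes a microtubule-associated protein of growing axons and was the 13th most abundant gene. It was counted 38594 and 41425 times in WT and 55823 and 35533 times in *Patz1* KO, or 2591 and 2605 CPM against 2303 and 2119 CPM. The KO libraries were thus both lower, but the log2 fold change of -0.23 (95% interval -0.50 to 0.032) did not pass the test (adjusted p = 0.137, edgeR). It passed with DESeq2's Wald test (-0.22, adjusted p = 0.0436), and in no other alternative that kept every library. Leaving out 1 library gave log2 fold changes from -0.29 to -0.17. *Map1b* and *Dcx* are both microtubule binders of young neurons, and their values lay on opposite sides of 0.

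*Map2*, on chr1:66175273-66442583, encodes the main microtubule-associated protein of dendrites. Its level was 544 and 543 CPM in WT and 624 and 619 CPM in *Patz1* KO, with libraries nearly equal within each group. The log2 fold change of 0.19 (95% interval -0.015 to 0.40) did not pass (adjusted p = 0.116, edgeR). It did not pass in any alternative that kept every library. Leaving out 1 library gave log2 fold changes from 0.19 to 0.21. *Map2* shares 124 exonic bases with the antisense gene *Gm10558*, and the strand setting of the counting is not given in the sources used here, so reads of the overlap could come from either gene.

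*Mapt*, on chr11:104231390-104332090, encodes tau, which binds axonal microtubules. It gave 357 and 335 CPM in WT against 361 and 314 CPM in *Patz1* KO, and the KO libraries lay on either side of the WT values. The log2 fold change was -0.03 (95% interval -0.24 to 0.17, adjusted p = 0.802, edgeR), and its sign changed to 0.014 without WT replicate 1 and to 0.070 without *Patz1* KO replicate 2. Of the per-length counts of *Mapt* and *Map2* together, *Mapt* took 58.9% and 57.4% in WT and 55.9% and 52.6% in *Patz1* KO, lower in both KO libraries. From raw counts it took 39.63% and 38.13% in WT and 36.68% and 33.66% in *Patz1* KO. Which of these genes is larger thus depends on the length used. These shares describe each library and were not tested, here and for the other families.

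The stathmins also differed. *Stmn2*, on chr3:8509360-8561606, encodes a neuron-specific stathmin of the growth cone, counted 6824 and 7048 times in WT libraries against 13877 and 10552 times in KO libraries. Its level was 458 and 443 CPM in WT and 572 and 629 CPM in *Patz1* KO, with both KO libraries higher. *Stmn2* rose 1.33-fold, a log2 fold change of 0.41 (SE 0.10, 95% interval 0.20 to 0.63, adjusted p = 0.00248, edgeR's quasi-likelihood test), but without WT replicate 2 the adjusted p was 0.0872, the highest of 11 alternatives (lowest 9.30e-09). The log2 fold change of *Stmn2* was then 0.40 with SE 0.18, so its size was little changed and its error was larger. *Stmn1*, on chr4:134468320-134473843, encodes the broadly expressed stathmin that is also abundant in dividing progenitors. It gave 818 and 767 CPM in WT and 743 and 751 CPM in *Patz1* KO, both KO libraries lower but by little. Its log2 fold change was -0.08 (95% interval -0.31 to 0.14, adjusted p = 0.527, edgeR). *Stmn1* shares 66 exonic bases with the miRNA gene *Gm23634*.

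Within the stathmin family, per-length counts of *Stmn2* made up 10.2% and 10.6% in WT against 12.2% and 12.8% in *Patz1* KO, and those of *Stmn1* made up 53.1% and 53.6% in WT and 46.0% and 44.6% in *Patz1* KO. From raw counts the *Stmn2* share was 27.81% and 28.69% in WT and 32.45% and 33.76% in *Patz1* KO. The size of the share thus depends on the length used. *Stmn3* rose by a log2 fold change of 0.31 (adjusted p = 0.00933, edgeR) and *Stmn4* by 0.64 (adjusted p = 8.09e-05), so 3 of the 4 stathmin genes rose while *Stmn1* did not pass the test. For *Tubb3*, the share of beta-tubulin per-length counts was 31.0% and 29.4% in WT against 37.2% and 31.1% in *Patz1* KO, and KO replicate 2 lay close to WT replicate 1. In the same family, *Tubb6* and *Tubb4a* fell by 0.51 and 0.28 on the log2 scale.

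**Figure D2:**
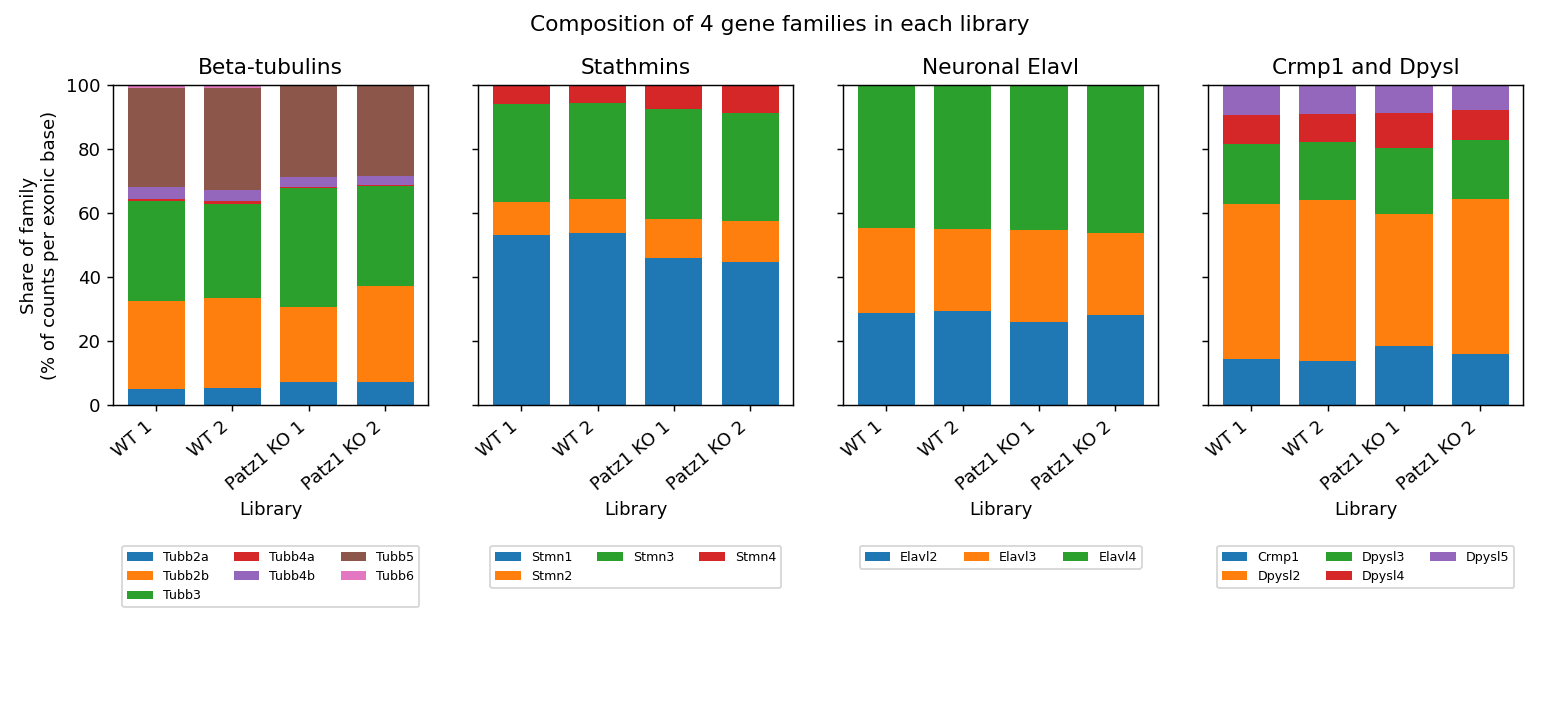
Percent of per-length counts within a library taken by each gene of a family, for beta-tubulins (*Tubb1* counted but not drawn), stathmins, neuronal *Elavl* genes and the *Crmp1* and *Dpysl* genes, with 1 stacked bar per library. In the stathmin panel *Stmn2* goes from 10.2% and 10.6% in WT to 12.2% and 12.8% in *Patz1* KO.

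*Gap43* and *Dpysl3* act in the growth cone. *Gap43*, on chr16:42248442-42340651, encodes a membrane protein of the growth cone, and *Dpysl3*, at chr18:43320984-43438286, encodes a collapsin response mediator protein that links guidance signals to the cytoskeleton. *Gap43* gave 549 and 493 CPM in WT and 606 and 564 CPM in *Patz1* KO, higher in both KO libraries. Its log2 fold change of 0.17 (95% interval -0.049 to 0.39) did not pass (adjusted p = 0.190, edgeR), nor did it in any alternative that kept every library. Leaving out 1 library gave log2 fold changes from 0.099 to 0.25. *Dpysl3* gave 536 and 487 CPM in WT and 650 and 566 CPM in *Patz1* KO, likewise higher in both KO libraries. Its log2 fold change of 0.25 (95% interval 0.024 to 0.47) missed the threshold after adjustment (adjusted p = 0.0634, edgeR). It was called by edgeR with no filter on low counts (adjusted p = 0.0205) and by DESeq2's Wald test (0.0413). Leaving out 1 library gave log2 fold changes from 0.15 to 0.35. Of its own family, *Dpysl3* took 18.6% and 18.1% of per-length counts in WT against 20.4% and 18.5% in *Patz1* KO, where KO replicate 2 lay between the WT libraries. Among its paralogs, *Crmp1* rose by 0.45 (adjusted p = 0.00246, edgeR) and *Dpysl4* by 0.33 (adjusted p = 0.0148), whereas *Dpysl5* (0.01) and *Dpysl2* (0.03) did not pass.

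*Elavl4*, on chr4:110203722-110351909, encodes HuD, an RNA-binding protein that stabilises mRNAs of neurons, *Gap43* mRNA among them, and is not itself a cytoskeletal protein. It gave 339 and 335 CPM in WT and 352 and 370 CPM in *Patz1* KO, slightly higher in both KO libraries. Its log2 fold change was 0.10 (95% interval -0.092 to 0.30, adjusted p = 0.380, edgeR). Its share of the neuronal ELAVL genes was 44.7% and 44.9% in WT against 45.3% and 46.2% in *Patz1* KO, and neither *Elavl2* (-0.03) nor *Elavl3* (0.13) passed the test.

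**Figure D3:**
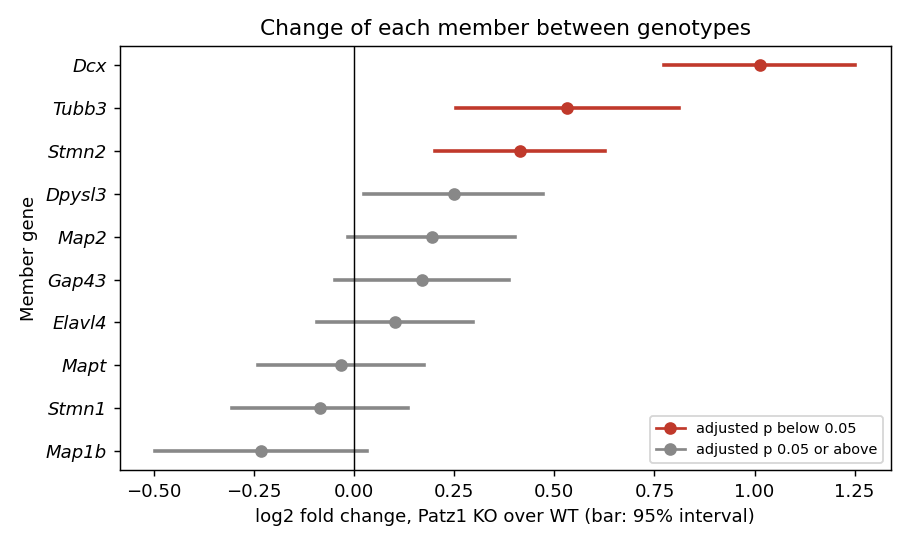
Log2 fold change of each gene, *Patz1* KO over WT, with its 95% interval from edgeR's fit. *Dcx* stands at 1.01, the intervals of *Tubb3* and *Stmn2* start at 0.25 and 0.20, that of *Dpysl3* starts at 0.024, and the other 6 include 0.

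Per kilobase of merged exon length, *Tubb3* was the most abundant of these genes, with a mean RPKM (CPM divided by exon length in kilobases) of 896 in WT and 1296 in *Patz1* KO. *Stmn1* followed at 412 and 389 RPKM, *Gap43* at 342 and 384, and *Map1b* at 164 and 140. *Stmn2* had 80.5 RPKM in WT and 107 in *Patz1* KO, *Dpysl3* had 77.4 and 92.0, and *Dcx* had 65.7 and 133. *Elavl4*, at 62.5 and 67.1 RPKM, *Mapt*, at 45.9 and 44.8, and *Map2*, at 33.0 and 37.8, were the lowest. *Dcx* therefore moved from rank 7 to rank 5, and *Stmn2* and *Dpysl3* each moved down by 1 place. *Stmn2* and *Dpysl3* overlapped between libraries in WT, as did *Stmn1* with *Gap43* and *Map1b* with *Dcx* in *Patz1* KO, so these pairs have no order beyond their spread. Summed, the 10 genes held 0.888% and 0.850% of all counts in WT against 1.06% and 0.950% in *Patz1* KO. The largest rises in mean CPM were those of *Dcx* (830 to 1676) and *Tubb3* (1673 to 2421). *Map1b* (2598 to 2211), *Stmn1* and *Mapt* had lower means in *Patz1* KO, so the sum does not describe each gene.

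Lists of related genes, written with earlier results of these data known, were counted for comparison. Over all tested genes, 24.1% were called higher and 23.8% lower, or 47.9% in all. Of the other microtubule-binding proteins, 17 of 31 rose and 3 fell (64.5% called), with a median log2 fold change of 0.34. *Map7d2*, which recruits kinesin to microtubules, rose by 1.36 (adjusted p = 1.99e-08, edgeR), whereas the abundant *Pafah1b1* and *Mapre1* had values of -0.05 and -0.08 and did not pass. Among the paralogs of *Dcx*, chosen here after their values were seen, *Dclk2* rose by 0.76 and *Dclk1* had a value of -0.04, which did not pass.

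Of the other tubulins, 2 of 14 rose and 5 fell, so 50% were called, close to the 47.9% of all tested genes. Their median of -0.015 changed sign to 0.063 without WT replicate 1 and to 0.066 with no filter on low counts. *Tubb2a* rose by 0.82 (adjusted p = 1.31e-06, edgeR), while the more abundant *Tuba1a* (0.30), *Tubb2b* (0.29) and *Tubb5* (0.19) did not pass. Only 3 of these tubulins were called without WT replicate 1 and 4 without *Patz1* KO replicate 2. Reads of nearly identical tubulin genes may have been divided between copies in counting, so values of single tubulins are uncertain.

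Of the other growth cone proteins, 16 of 29 rose and 2 fell, with a median of 0.30. *Chl1*, an adhesion molecule of the L1 family, had WT counts of 312 and 341 against KO counts of 1608 and 1200, and rose by 1.70 on the log2 scale (adjusted p = 4.99e-10, edgeR). *Ncam1*, another adhesion molecule, rose by 0.33, and the abundant *Marcks* and *Dpysl2* gave -0.09 and 0.03 and did not pass. Leaving out WT replicate 2 cut the growth cone calls from 18 to 9. Of the other neuronal RNA-binding proteins, 5 of 16 rose and 1 fell, with a median of 0.16, and 10 were called without *Patz1* KO replicate 2. The splicing regulator *Rbfox3* rose by 0.89 (adjusted p = 4.95e-05, edgeR), and *Elavl2*, *Ptbp2* and *Rbfox2* did not pass. Called shares were 62.1% for the growth cone proteins and 37.5% for the RNA-binding proteins, beside 47.9% of all tested genes.

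Of the kinesins, dynein subunits and their adaptors, 12 of 23 rose and 4 fell (median 0.21), with 10 called in all without WT replicate 2. The 4 that fell, named after their values were seen, were *Kif4* (-0.94) and *Kif2c* (-0.79), which are known as motors of mitosis, *Kif5b* (-0.41), a transport motor of many cell types, and *Kif2a* (-0.30), which depolymerises microtubules. *Kif26a* had WT counts of 357 and 324 against KO counts of 2061 and 1348, and rose by 1.90 on the log2 scale (adjusted p = 2.39e-10, edgeR), and *Kif5c*, an axonal transport motor, rose by 0.44. *Dync1h1* and *Kif1b* did not pass. In all, 69.6% of this list was called, beside 47.9% of all tested genes. Of the enzymes that modify or sever tubulin, 6 of 24 rose and 9 fell (median 0.049), and 8 were called without WT replicate 1, with a median of -0.03, and 8 without WT replicate 2. Of these, *Vash1*, a tubulin carboxypeptidase, fell by 0.23 and *Fignl1* by 0.87, while *Spast*, a severing enzyme (0.10), and *Agtpbp1*, a deglutamylase (0.16), did not pass. Those that rose, named after their values were seen, included *Agbl3* (1.43), *Tpgs1* (0.77), *Ttll3* (0.75), *Hdac6* (0.39) and *Sirt2* (0.36). Of the kinases that act on these proteins, 11 of 21 rose and 2 fell (median 0.26), with 7 called without WT replicate 1 and 5 without WT replicate 2. The tau kinase *Gsk3b* fell by 0.36, and *Mark3*, *Mark4* and *Mapk8* rose by 0.24, 0.77 and 0.24. Called shares were 62.5% for the tubulin enzymes and 61.9% for these kinases, beside the same 47.9%.

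**Figure D4:**
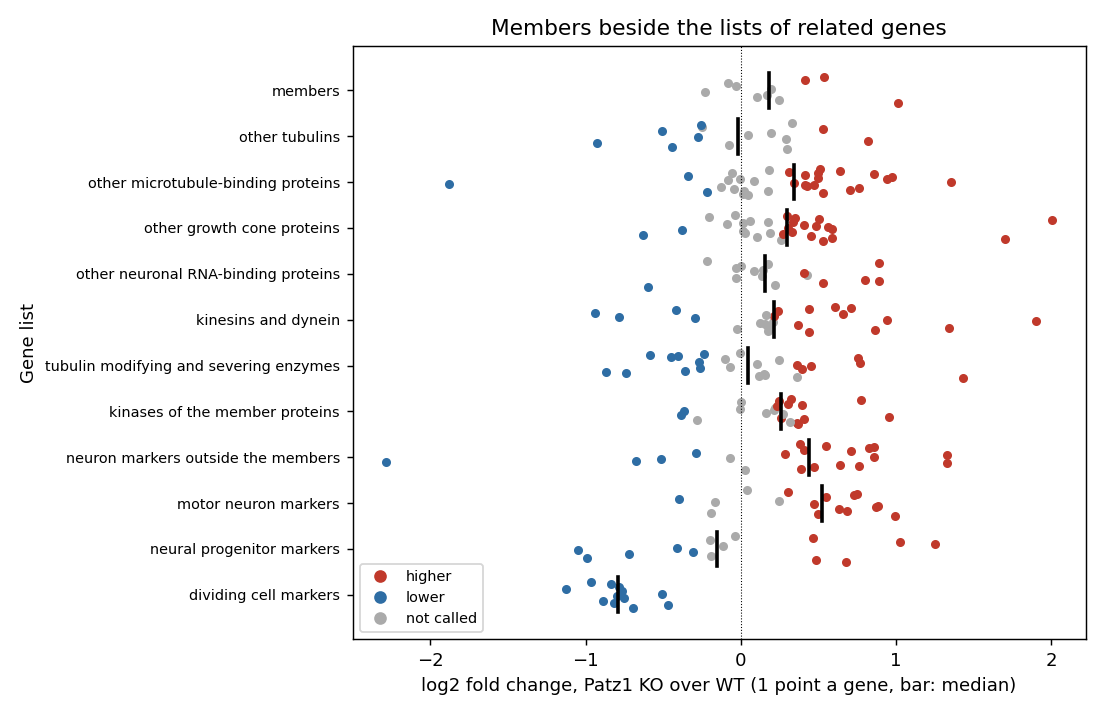
Log2 fold change of every tested gene in each list, *Patz1* KO over WT, coloured by call, with a bar at each list's median. The members' median is 0.18, the median of dividing cell markers is -0.79 and that of neuron markers is 0.44; the primitive endoderm, mesenchyme and pluripotent cell lists are not drawn.

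Markers of the cell types in these cultures were counted beside these values, and their part in the results was not tested. Over all tested genes, 24.1% were called higher and 23.8% lower. Motor neuron markers were present in every library, and 11 of 16 rose and 1 fell (summed CPM 1788 to 1858 in WT, 2263 to 2376 in *Patz1* KO). Among them *Chat*, which makes acetylcholine, stood at 29.5 and 26.9 CPM in WT against 56.2 and 55.7 CPM with *Patz1* lost, and rose by 0.99 on the log2 scale (adjusted p = 3.43e-07, edgeR). *Slc18a3*, the vesicular acetylcholine transporter gene, rose by 0.73 and the guidance ligand gene *Slit2* by 0.30, whereas *Slit3* (0.04) did not pass. *Slit2*, *Slc18a3* and *Slit3* had the highest mean CPM of this list and weigh most in its sum. Neuron markers other than the 10 genes gave 14 of 20 higher and 4 lower (summed CPM 3366 to 3620 in WT, 5273 to 5602 in *Patz1* KO). The neurofilament gene *Nefl* rose by 1.33, *Nsg2* by 0.86 and *Meg3* by 0.47 on the log2 scale, while *Nefm* fell by 2.28, and *Nefl* and *Nefm* share 1108 exonic bases on opposite strands. Neural progenitor markers split, with 5 of 14 higher and 5 lower (summed CPM 2548 to 2663 in WT, 2624 to 2627 in *Patz1* KO). *Slc1a3* and *Fabp7*, glial and radial glial genes, rose by 1.25 and 0.68, *Nes* fell by 0.72, and *Vim* (-0.04) did not pass.

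All 12 dividing cell markers fell (summed CPM 2015 to 2135 in WT, 1116 to 1140 in *Patz1* KO), while 23.8% of all tested genes were called lower. Of primitive endoderm markers, 12 of 14 fell (1323 to 1485 in WT, 342 to 369 in *Patz1* KO), and all 13 mesenchyme markers fell (224 to 247 in WT, 36.7 to 43.2 in *Patz1* KO). In the endoderm list *Col4a1*, *Lama1* and *Sparc* had the highest mean CPM and weigh most in its sum. That sum was therefore not read as a level of endoderm cells. Pluripotent cell markers were near the floor (9.40 to 13.4 in WT, 6.31 to 7.45 in *Patz1* KO), with *Utf1* and *Fgf4* at 0 in every library, 2 of 5 tested markers lower, and 1 of 6 lower when either WT replicate was left out.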

How the data were processed

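RNA-seq libraries were made from total RNA of 2 WT and 2 *Patz1* KO cultures. The labels name a stranded TruSeq kit with RiboZero removal of ribosomal RNA and the study's methods name KAPA kits, so the kit and its strandedness are not settled here. The authors deposited raw counts per gene symbol. The submitters' notes name TopHat2 2.1.1, Bowtie2 2.3.1, featureCounts 1.6.2 and build mm10; the strand setting is not given in the sources used here. The study describes replicates as separate differentiations, and the labels do not pair them.

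Counts were tested with edgeR 4.0.16 (R 4.3.3, limma 3.58.1): TMM scaling, filterByExpr with a minimum count of 10, a genotype term only, the two-sided quasi-likelihood F test and Benjamini-Hochberg adjustment over all 14269 genes, called at 0.05. SEs are the log2 fold change over the square root of F; intervals are 95%. CPM used TMM-scaled library sizes, and lengths came from merged exons of GENCODE. Of the 23420 symbols, 21737 matched 1 annotated gene. DESeq2 1.42.0 was an alternative. The fit was first run on simulated counts in which every gene and group had the same dispersion. In these data the replicate spread was unequal (chi-square per gene 9.87 in WT and 22 in *Patz1* KO), so that run does not cover it. Named genes were all 10 members, *Patz1*, the 3 most abundant tested genes and the one with the smallest p of each list, and families that enter a share; lists of dividing, endoderm, mesenchyme and pluripotent cells were given by counts and summed levels. Genes named outside this rule are said to be so where they appear, with 2 exceptions. *Utf1* and *Fgf4* were named for their counts of 0, and *Col4a1*, *Lama1* and *Sparc* for their weight in the endoderm sum. Members and lists were chosen with earlier results of these data known. Other scalings, filters, a replicate block and leaving out each library were tried.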

Additional observations from a re-analysis of the deposited data

How the results depend on the processing

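Other scalings, filters and tests moved the median of all genes by little (between -0.03 and 0.0207 on the log2 scale). Leaving out 1 library leaves a group with 1 library, which is assumed to vary like the other group. For *Map2* the SE of 0.099 became 0.083 or 0.085 without a *Patz1* KO library and 0.18 without a WT library. Counts of calls in such fits thus depend on which pair gives the replicate spread. In these fits the called genes were 1 to 6 for the 10 members, the low of 1 (*Dcx*) without WT replicate 2 and the high without *Patz1* KO replicate 2; 4521 to 7816 for all genes; 3 to 8 for other tubulins; 9 to 20 for growth cone proteins; 6 to 10 for RNA-binding proteins; 10 to 21 for kinesins and dynein; 8 to 17 for tubulin enzymes; 5 to 15 for kinases; and 1 to 3 for pluripotent markers. *Mapt* ranged from -0.13 to 0.070. With DESeq2's Wald test 5 members were called (4 higher, 1 lower), and 1 pluripotent marker. The share of *Stmn2* among stathmins rose by 4.85 percentage points from raw counts and by 2.07 per length. Causes of these changes were not tested.

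The replicate numbers do not pair the samples in the labels. Across genes, deviations of replicate 1 from its group mean correlated at 0.0304 between WT and *Patz1* KO. With 2 libraries per group, replicate 2 mirrors replicate 1 and adds no further value. With a replicate block 3 members and 7361 genes in all were called.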
